A study of Homo sapiens with 7 samples.

Results

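EPB41L3 and its relatives are proteins that tie the cell membrane to the actin skeleton, and their expression was examined in ACHN cells, a human renal cell adenocarcinoma line, with and without HOTAIR overexpression. The group held 10 of the 34809 gene names on the array. EPB41L3 was selected on its array signal, which was lower in the HOTAIR cells of these same samples, and the other 9 genes were placed around it by function. They were the protein 4.1 genes EPB41, EPB41L1, EPB41L2 and EPB41L5, the ezrin, radixin and moesin genes EZR, RDX and MSN, the merlin gene NF2, and CADM1. Each member was taken as every non-control probe that carried its gene name, which gave 16 probes and 29 spots on each array.

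The study asked which genes change when HOTAIR, a long non-coding RNA, is overexpressed. Each sample's total RNA was labelled with 1 dye and put on an Agilent SurePrint G3 Human GE array of its own. The control group (EV, n = 4) was ACHN transduced with the empty retroviral vector pBabe-hygro and the other group (HOTAIR, n = 3) was ACHN transduced with the same vector carrying HOTAIR, so that both groups had been infected and selected with hygromycin. The labels do not say whether samples of a group came from separate transductions or cultures, so p-values measure the spread between these samples, which may be technical. No time after transduction is given, and ACHN is 1 cell line.

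Protein 4.1, ezrin, radixin, moesin and merlin share the FERM domain, a fold that docks on the inner face of the membrane and on the tails of membrane proteins. Several protein 4.1 family members also bind spectrin and actin and so fasten the membrane skeleton to adhesion molecules and transporters. The ezrin, radixin and moesin proteins (ERM) link the cell cortex to microvilli and ruffles once their closed form has opened. EPB41L3, also called 4.1B or DAL-1, binds the tail of the adhesion molecule CADM1 and is known as a growth suppressor lost in several carcinomas, among them renal tumours, and merlin is the product of the neurofibromatosis type 2 gene and an upstream part of the Hippo pathway.

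The arrays measured each gene through probes of 60 bases, and the array annotation places them on hg19. The first 30 bases of the probes on which the description turns are shown for the gene with the largest difference, for its closest relative with separate groups, and for its adhesion partner. No base is capitalised because no motif was marked. The EPB41L3 probe lies on the minus strand at chr18:5393392-5393451 and the part shown at chr18:5393422-5393451. The EPB41L1 probes lie on the plus strand, with the parts shown at chr20:34818126-34818155 for the probe that starts at transcript position 3680 and at chr20:34820431-34820460 for that at position 5985. The CADM1 probes lie on the minus strand, with the parts shown at chr11:115044457-115044486 for the probe at position 4165 and at chr11:115102169-115102198 for that at position 565.
EPB41L3, A_23_P4536: agtcatgcaaaccgttaggaaaaccagagc
EPB41L1, A_23_P154806: agacattgtatgcttatggtttctcattat
EPB41L1, A_24_P185709: tttccatctgagggtacaggaagtaccagg
CADM1, A_33_P3421913: gtaagaaactccatatccatatgttcccat
CADM1, A_33_P3745146: atctgatgatcgatatccagaaagacactg

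Signals are given as the log2 of the processed intensity (background subtracted by the scanner software) minus the 75th percentile of the same array, so that 0 is the intensity of a fairly bright spot. Between 48.7% and 52.1% of the 42405 probes were well above background on an array, a call made by the software, and no spot was saturated. The labels were checked with the HOTAIR probe A_32_P168442, which the software called well above background on 0 of 4 EV arrays and 3 of 3 HOTAIR arrays. Its signal was -6.69 ± 0.39 (SD, n = 4) in EV and -2.98 ± 0.35 (SD, n = 3) in HOTAIR (limma adjusted p = 0.00162). Of 9 markers of renal epithelium 8 were well above background on all arrays of a group, CDH6 being so on no array. None of 7 fibroblast markers was measured in that way, and of 8 markers of leukocytes and endothelium CD14 alone was, with a difference of 0.12. Some of the others were well above background on part of the arrays, CDH5 on at most 4, PTPRC on 3, PDGFRA on 2 and PECAM1 on 1. EV 2 stood apart from the other EV arrays, with an SD of its deviations from the group mean of 0.48 over the tested probes against 0.25 to 0.30 for the others. Its deviations correlated with those of HOTAIR 3 (r = 0.62 across probes, which are not independent replicates). The arrays shared 1 slide, with EV and HOTAIR in different rows of it, so row and group cannot be told apart.

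EPB41L3 had a lower signal in all HOTAIR arrays than in any EV array. Its log2 signal was -4.84 on EV 1, -4.13 on EV 2, -4.89 on EV 3 and -5.20 on EV 4. It was -7.17 on HOTAIR 1, -5.91 on HOTAIR 2 and -6.43 on HOTAIR 3. The mean was -4.77 ± 0.45 (SD, n = 4) in EV and -6.50 ± 0.63 (SD, n = 3) in HOTAIR. HOTAIR minus EV, the log2 difference was -1.74 with an SE of 0.34. Because the gene was picked for this difference, it is a description and is given no p-value. In RNA of whole cultures, fewer cells that express EPB41L3 and less of its RNA per cell cannot be told apart.

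The probe was near the lower end of what the array measures. It was well above background on all 4 EV arrays and on none of the 3 HOTAIR arrays, so the HOTAIR level is uncertain. On each HOTAIR array the higher of the dimmest signal well above background and the probe's own signal was taken. By these values EPB41L3 was 2.66-fold lower in HOTAIR than in EV, and 2.11-fold without EV 2 and HOTAIR 3. The probe's own signal was the higher on HOTAIR 2 (-5.911 against -6.165) and HOTAIR 3 (-6.431 against -6.446). A probe can thus lie above that dimmest signal without being called, so the fold is no strict lower bound. The size of this fold depended on how the background was removed and on the offset added. The normexp correction of the raw and local background intensities adds an offset of 50, which lifts dim spots towards a common floor. That offset is above all processed intensities of the probe, which ran from 4.11 to 33.5. With it the difference was -0.28 and the fold was 1.21. The parts of the offset and of the background removal were not tested.

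The array carries EPB41L3 on 2 spots, and these differed from each other. On the first spot the processed intensity was 20.8 on EV 1, 27.2 on EV 2, 26.2 on EV 3 and 26.5 on EV 4, against 4.11, 7.12 and 9.08 on HOTAIR 1, 2 and 3. On this spot the groups were separate, with every EV array above every HOTAIR array. On the second spot it was 24.6 on EV 1, 33.5 on EV 2, 14.1 on EV 3 and 7.61 on EV 4, against 4.78, 11.8 and 4.66 on HOTAIR 1, 2 and 3. Here EV 4 lay below HOTAIR 2 and the groups overlapped. Both spots were well above background on EV 1 and EV 2, 1 of the 2 on EV 3 and EV 4, and neither on the HOTAIR arrays. The intensities of the 2 spots differed by a median of 1.66-fold and by up to 3.49-fold (EV 4), while the medians of the other tested members with 2 spots lay between 1.02-fold and 1.10-fold. Before any subtraction the mean intensities of the spots were 60.7 to 87.1 on the EV arrays and 56.1 to 63.0 on the HOTAIR arrays.

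**Figure D1:**
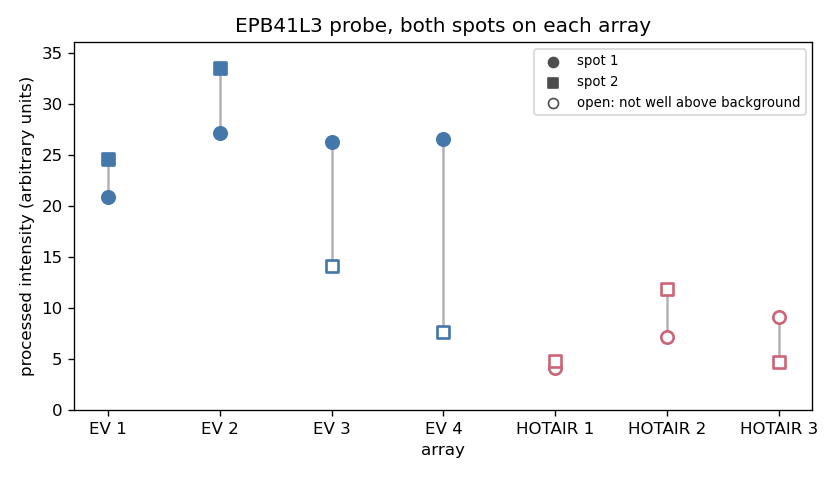
Processed intensity of the 2 EPB41L3 spots on each of the 7 arrays. The first spot sits between 20.8 and 27.2 on the EV arrays and between 4.11 and 9.08 on the HOTAIR arrays, while the second runs down to 7.61 on EV 4 and up to 11.8 on HOTAIR 2.

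Of the 16 member probes 12, for 9 genes, were well above background on all arrays of at least 1 group and were tested, 11 of them being so on all 7 arrays. EPB41L3, whose difference chose it, is left out of the counts that follow. None of the other 11 passed limma at an adjusted p of 0.05, which 0.167% of all tested probes did (0.132% higher and 0.0343% lower in HOTAIR). At an unadjusted p under 0.05 there was 1, a probe of EPB41L1, beside 5.85% of all tested probes. The rank product, the statistic of the study's methods, called 0 of the 11 and 0.411% of all tested probes. The groups did not overlap for 1 of the 11, the same EPB41L1 probe, which was higher in HOTAIR, and for 7.7% of all tested probes (3.5% lower and 4.2% higher). The 11 probes had differences from -0.22 to 0.28, with a median of -0.05 beside 0.01 over all tested probes, and 6 were lower and 5 higher in HOTAIR. The lowest adjusted p among these 11 was 0.753.

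**Figure D2:**
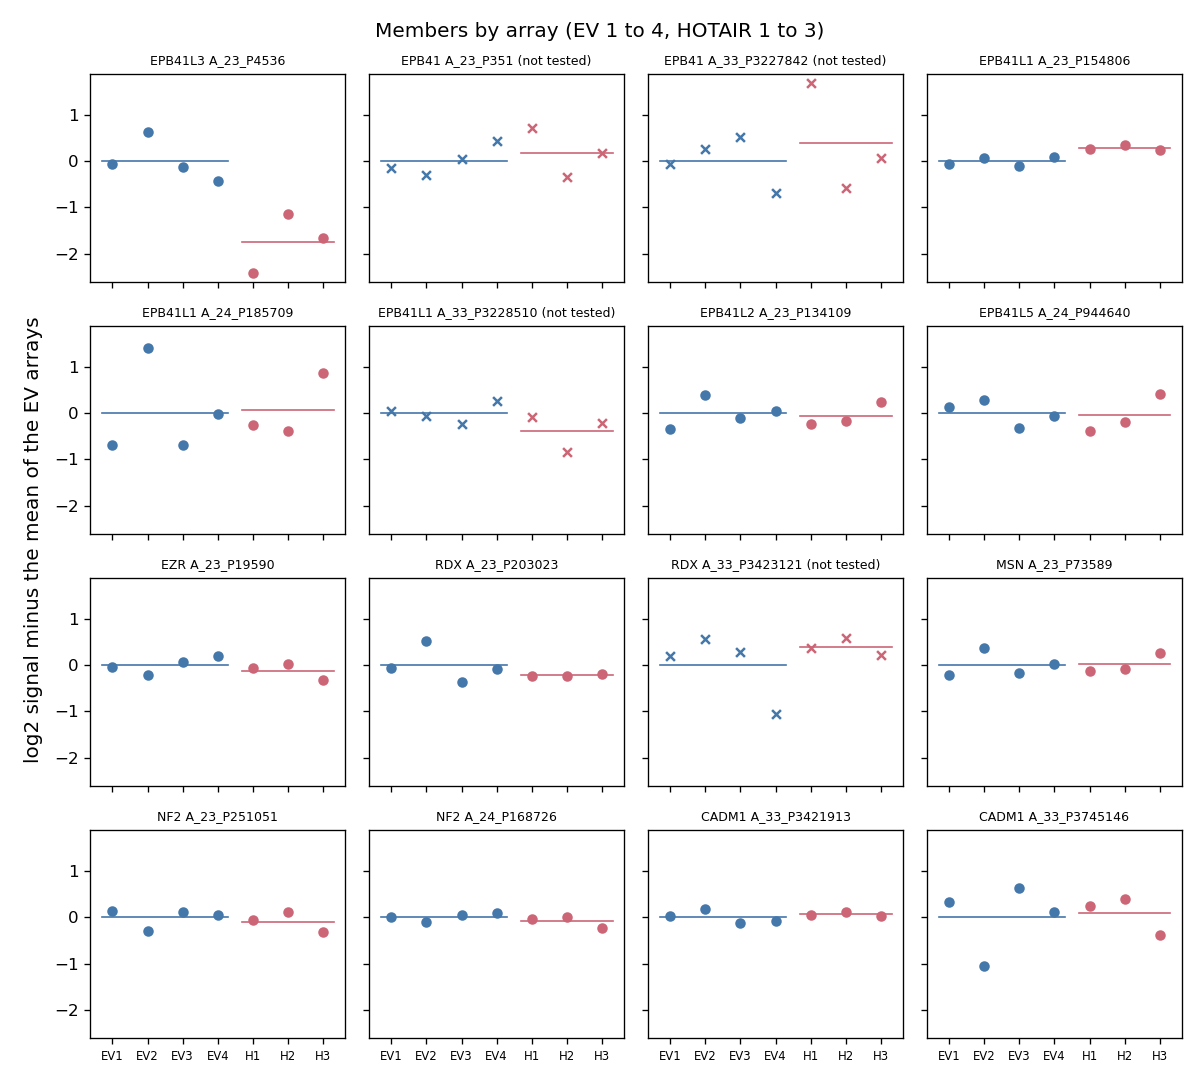
Log2 signal minus the mean of the EV arrays, for the 16 member probes on the 4 EV and 3 HOTAIR arrays. Each array is 1 point, with crosses for the 4 probes that were not tested. The EPB41L3 points separate by group, and those of most other probes mix. Before the EV mean was subtracted, the EPB41L3 signals ran from -5.20 to -4.13 in EV and from -7.17 to -5.91 in HOTAIR.

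**Figure D3:**
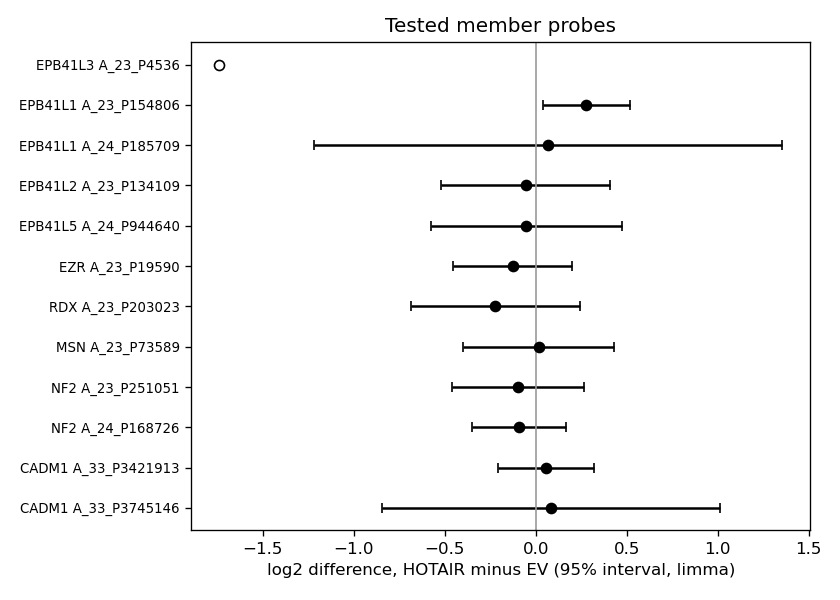
Log2 difference, HOTAIR minus EV, of the 12 tested member probes, with 95% intervals from limma. EPB41L3 is an open point without an interval because it was chosen for its difference of -1.74, and the other probes lie between -0.22 and 0.28.

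Of EPB41, EPB41L1, EPB41L2 and EPB41L5, EPB41L1 (4.1N, the family member best known from neurons) was the only one with a probe whose groups were separate. At transcript position 3680 its log2 signal was 2.01, 2.14, 1.97 and 2.16 on EV 1 to EV 4 and 2.33, 2.41 and 2.31 on HOTAIR 1 to HOTAIR 3. All HOTAIR arrays were above all EV arrays, and the means differed by 0.28 (95% interval 0.04 to 0.52, adjusted p = 0.753). The probe at position 5985 did not show this. Its values were -3.83, -1.74, -3.82 and -3.17 in EV and -3.40, -3.53 and -2.29 in HOTAIR, with EV 2 and HOTAIR 3 as the highest arrays of their groups. The groups overlapped and the difference was 0.07, with an interval wide enough to hold a change of either sign (95% interval -1.22 to 1.35, adjusted p = 0.996). The probe at position 602 never rose well above background.

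EPB41L2 (4.1G, the widely expressed member) had log2 signals of 2.39, 3.11, 2.61 and 2.77 in EV and 2.48, 2.55 and 2.95 in HOTAIR. The groups overlapped, with EV 2 and HOTAIR 3 again highest, and the difference was -0.06 (95% interval -0.52 to 0.41, adjusted p = 0.993). EPB41L5, a FERM protein that binds p120 catenin and acts in epithelial-mesenchymal transition, had -3.10, -2.94, -3.55 and -3.30 in EV and -3.61, -3.41 and -2.81 in HOTAIR. The groups overlapped, and the difference was -0.05 (95% interval -0.58 to 0.47). EPB41 (4.1R, the protein of the red cell membrane) was not tested. Its probe A_23_P351 ranged from -6.12 to -5.39 in EV and from -6.15 to -5.11 in HOTAIR and was well above background on EV 4 and HOTAIR 1. Its other probe, A_33_P3227842, ranged from -7.19 to -5.98 in EV and from -7.07 to -4.82 in HOTAIR and was well above background on HOTAIR 1.

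The ERM genes were measured on every array by at least 1 probe each. EZR encodes ezrin, the linker of epithelial microvilli, and its log2 signal was 4.56, 4.37, 4.66 and 4.78 in EV and 4.52, 4.61 and 4.27 in HOTAIR. The groups overlapped and the difference was -0.13 (95% interval -0.46 to 0.20). MSN encodes moesin, and its signal was 3.17, 3.75, 3.22 and 3.42 in EV and 3.25, 3.31 and 3.66 in HOTAIR. EV 2 and HOTAIR 3 were the highest arrays, and the difference was 0.01 (95% interval -0.40 to 0.43, adjusted p = 0.997). RDX encodes radixin, and its signal was 1.06, 1.63, 0.76 and 1.03 in EV and 0.88, 0.89 and 0.93 in HOTAIR. The HOTAIR arrays lay close together within the EV range, and the difference was -0.22 (95% interval -0.69 to 0.24, adjusted p = 0.993). Without EV 2, the highest array, it was -0.051. A further RDX probe, A_33_P3423121, never rose well above background.

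NF2 encodes merlin, and its probe at position 6006 had log2 signals of 4.70, 4.29, 4.70 and 4.63 in EV and 4.52, 4.69 and 4.26 in HOTAIR. EV 2 and HOTAIR 3 were the lowest arrays of their groups, and the groups overlapped. The difference was -0.10 (95% interval -0.46 to 0.27), and at position 1800 it was -0.09 (95% interval -0.35 to 0.16), so both probes lay on the same side of 0 with intervals across it.

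CADM1 encodes the immunoglobulin-type adhesion molecule whose cytoplasmic tail EPB41L3 binds. At position 4165 its log2 signal was 1.13, 1.28, 0.98 and 1.03 in EV and 1.15, 1.21 and 1.12 in HOTAIR, and the HOTAIR arrays fell inside the EV range. The difference was 0.06 (95% interval -0.21 to 0.32, adjusted p = 0.993). At position 565 it was -3.28, -4.65, -2.97 and -3.48 in EV and -3.36, -3.20 and -3.98 in HOTAIR. EV 2 and HOTAIR 3 were the lowest arrays, and the difference was 0.08 with a wide interval (95% interval -0.85 to 1.01, adjusted p = 0.994). A p above the threshold does not show that a level was equal in the 2 groups, and the intervals of CADM1 at position 4165 and NF2 at position 1800 were the narrowest after that of EPB41L1 at position 3680.

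EV 2 and HOTAIR 3 moved together across the members, as they did over all tested probes (r = 0.62), so this is not particular to the members. EV 2 was the highest or lowest EV array in 10 of the 11 tested probes other than EPB41L3. HOTAIR 3 was the highest or lowest HOTAIR array in 11 of 11, and both deviated the same way in 9. The matching shares over all tested probes were not counted. For EPB41L1 at position 5985, EV 2 lay 1.87 above the mean of the other EV arrays and HOTAIR 3 lay 1.18 above that of the other HOTAIR arrays. For CADM1 at position 565 the same deviations were -1.41 and -0.70. EPB41L2 (0.52 and 0.44) and MSN (0.49 and 0.38) were raised on both arrays, and EZR (-0.29 and -0.30) and NF2 at position 6006 (-0.39 and -0.35) were lowered on both. For EPB41L3 itself EV 2 lay 0.84 above the other EV arrays and HOTAIR 3 lay 0.11 above the other HOTAIR arrays, and without both arrays its difference was -1.56. The part of these arrays in the spread of the members was not tested.

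**Figure D4:**
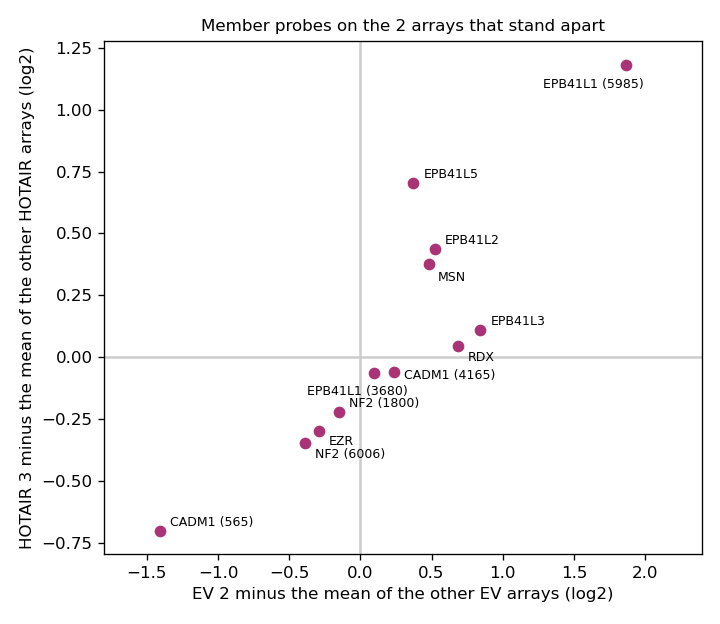
Deviation of HOTAIR 3 from the mean of the other HOTAIR arrays against that of EV 2 from the mean of the other EV arrays (log2), 1 point per tested member probe, with the transcript position in parentheses for genes with 2 tested probes. The points run from CADM1 (565) at -1.41 and -0.70 to EPB41L1 (5985) at 1.87 and 1.18.

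The genes around the members were taken from 5 lists of 118 genes in all, of which 92 were tested through their brightest tested probe. None of the 92 passed limma at an adjusted p of 0.05. At an unadjusted p under 0.05 there were 6 (6.52%, beside 5.85% of all tested probes), the rank product called 0, and the groups did not overlap for 10 (10.9%, beside 7.7% of all tested probes). In each list the 2 tested genes with the largest differences are named.

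Of 21 genes of the spectrin-actin skeleton, to which several protein 4.1 proteins bind, 14 were tested, 8 higher and 6 lower in HOTAIR, with a median difference of 0.09. Here lay the largest differences of the 5 lists. GYPC encodes glycophorin C, the membrane anchor of protein 4.1 in red cells, and its log2 signal was -2.62, -3.19, -2.77 and -2.68 in EV and -1.73, -1.82 and -2.02 in HOTAIR. All HOTAIR arrays were above all EV arrays, and the means differed by 0.96 (95% interval 0.58 to 1.34, adjusted p = 0.115). ADD2 encodes beta-adducin, which caps actin filaments and brings spectrin to them, and its signal was -1.44, -1.62, -1.38 and -1.37 in EV and -0.64, -0.47 and -0.70 in HOTAIR. The groups were again separate, and their means differed by 0.85 (95% interval 0.58 to 1.12, adjusted p = 0.0585). The other ADD2 probes, also with separate groups, gave 0.68 and 0.65. Over the alternatives the adjusted p of ADD2 ran from 0.0481 (scaling to the median of the detected probes) and 0.0484 (quantile normalization) to 0.496 (replicate number as a block), and no other alternative brought it under 0.05.

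Of 44 further genes with a FERM domain 32 were tested, 16 higher and 16 lower, with a median of -0.02. FRMD5, a FERM protein found at cell junctions, had log2 signals of -3.57, -4.20, -3.47 and -3.54 in EV and -4.43, -4.57 and -4.41 in HOTAIR. The groups were separate, and the difference was -0.78 (95% interval -1.22 to -0.33, adjusted p = 0.350). Without EV 2, whose signal was the nearest to the HOTAIR arrays, it was -0.94 with an adjusted p of 0.0401, the one alternative that passed, and the others gave 0.0811 to 1.00. With normexp it was -0.29. EPB41L4A, a protein 4.1-like member, was 0.42 higher in HOTAIR with separate groups (95% interval 0.10 to 0.74, adjusted p = 0.654).

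Of the 24 genes listed as membrane partners of the members or as ERM regulators, 17 were tested, 6 higher and 11 lower, with a median of -0.03. PDZK1, a scaffold of brush border transporters in the proximal tubule, had log2 signals of -1.68, -1.32, -1.55 and -1.69 in EV and -2.06, -2.15 and -2.04 in HOTAIR. The groups were separate, with a difference of -0.52 (95% interval -0.81 to -0.23, adjusted p = 0.324). ICAM2, an adhesion molecule that binds ezrin, differed by 0.36 with overlapping groups (adjusted p = 0.952), and by 0.17 without HOTAIR 2, 0.23 without EV 2 and 0.61 without HOTAIR 3. With normexp it was 0.16.

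All 20 genes listed for merlin and the Hippo pathway were tested, 10 higher and 10 lower, with a median near 0. AMOTL1, an angiomotin that holds YAP1 at junctions, differed by 0.73 and MOB1B, a cofactor of the LATS kinases, by 0.40. Over all their tested probes the differences ran from 0.56 to 0.73 for AMOTL1 and from 0.01 to 0.40 for MOB1B. By their brightest probes both genes spread widely within the groups, with intervals of -0.62 to 2.07 and of -0.41 to 1.21. With single arrays left out AMOTL1 ran from 0.28 (without EV 2) to 1.19 (without HOTAIR 3) and MOB1B from 0.076 (without HOTAIR 3) to 0.64 (without HOTAIR 2). All 9 cytoplasmic partners of EPB41L3, the arginine methyltransferases PRMT3 and PRMT5 and 7 14-3-3 genes, were tested, 3 higher and 6 lower, with a median of -0.08. PRMT3, whose activity EPB41L3 binding alters, differed by -0.29 and the 14-3-3 gene YWHAB by -0.18, both with overlapping groups and with adjusted p-values of 0.914 and 0.948.

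**Figure D5:**
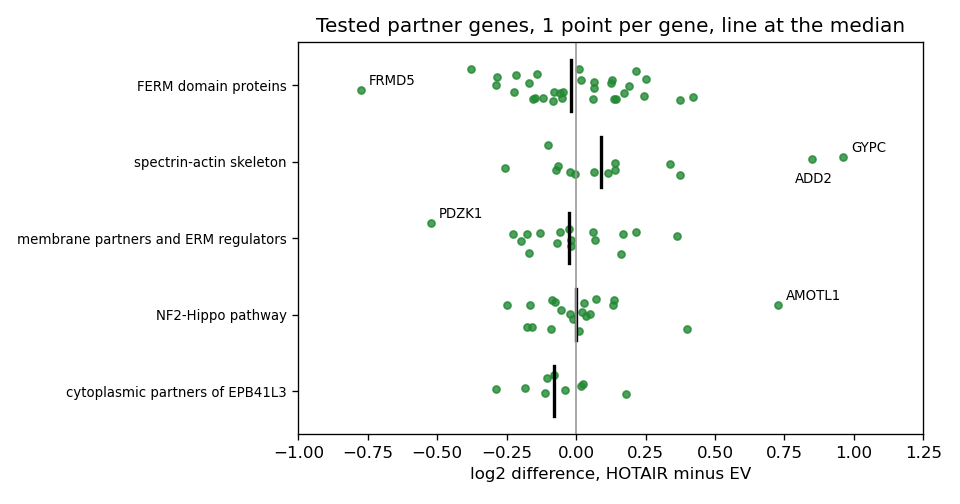
Log2 difference, HOTAIR minus EV, of the 92 tested partner genes in their 5 lists, 1 point per gene, with a bar at each list's median. The medians lie between -0.08 and 0.09, and GYPC (0.96) and ADD2 (0.85) lie farthest to the right and FRMD5 (-0.78) farthest to the left.

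The genes next to EPB41L3 on chromosome 18 were taken by their place on the array annotation. The nearest named gene with a tested probe on one side, ZFP161 (now ZBTB14, a zinc finger protein), lies 103.5 kb away and differed by -0.07 (adjusted p = 0.993). On the other side it was LAMA1, a laminin chain, 1548.6 kb away, with -0.30 (adjusted p = 0.898). Within 1500 kb of the EPB41L3 probe lay 23 other probes, of which 5 were tested and 15 never rose well above background. Of the 5 tested, 1 had separate groups, beside 7.7% of all tested probes, and so few probes give no share to set against it. It was a probe of LOC339290 (named after its values were seen), with -4.35, -4.35, -4.42 and -4.27 in EV and -5.18, -4.98 and -4.61 in HOTAIR. Its difference was -0.57 (adjusted p = 0.403). A probe named BF733045, 501.7 kb away and also named after its values were seen, had 0.55, -7.26, 1.81 and 1.35 in EV and 2.31, 1.64 and 0.10 in HOTAIR. EV 2 lay far below the other arrays, the groups overlapped, and the difference was 2.24 with an SE of 2.11.

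The genes whose pattern over the 7 arrays was most like that of EPB41L3 were ATP8B1 (Pearson r = 0.994), DNTTIP2 (0.994), PLCB4 (0.979), C9orf122 (0.975) and CEBPZ (0.974). These correlations include the difference by which EPB41L3 was picked, and all points share the same arrays and scaling. By the deviations from the group means, which leave that difference out, genes among the most alike were BRCA1 (r = 0.992), RABL2A (0.985), PRPF4B (0.983) and ATP8B1 (0.982). Among the members, r over the 7 arrays ran from 0.60 for RDX down to -0.73 for EPB41L1 at position 3680. The genes most alike were picked from the 20419 tested probes, 1 probe per gene, among those with a gene symbol and with the members left out. All these correlations rest on few arrays and are given as a description.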

How the data were processed

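RNA of 4 EV and 3 HOTAIR samples of ACHN was labelled with Cy3 and hybridised to 1 slide of SurePrint G3 Human GE arrays. Per the file headers the authors deposited the Agilent Feature Extraction 10.7.3.1 output of each array, in which each spot has a processed intensity, a raw mean intensity, a local background and outlier, saturation and background calls. They also deposited a table of 62969 spots, whose 440783 values differed by at most 0.5% from the matching spots and were therefore linear and unscaled. Groups were taken from the sample labels.

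Computations used R 4.3.3 and limma 3.58.1. The deposited intensities were put on the log2 scale and centred on the 75th percentile of the 58717 non-control spots, array by array. Outlier spots (408 to 600 per array) were left out, and spots of a probe were averaged. A probe was taken as well above background on an array if at least 50% of its spots were, and was tested if it was so on every array of at least 1 group. The groups were compared by limma (lmFit, eBayes), with p-values adjusted by Benjamini-Hochberg across the 20419 tested probes (16664 gene names). The rank product used the 12 pairs of a HOTAIR and an EV array and 100 permutations, at a percentage of false positives of 0.05. Genes of the lists were represented by their brightest tested probe. Both tests were run on simulated arrays with the spread of each probe and with noise drawn independently for each probe and array. With no change simulated, limma made no call, whereas the rank product called at least as many probes as in the data, so its calls do not hold at the stated limit. The simulated noise lacked the deviations that EV 2 and HOTAIR 3 shared. It therefore cannot show whether the limma calls hold in these data. The number of arrays limits the precision.

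The members and gene lists were chosen with earlier results of these data known. The genes named are all members, the 2 genes with the largest absolute difference in each list, list genes past the threshold, the 5 genes most like EPB41L3 by each correlation, its nearest tested named genes and the HOTAIR probe, and 1 gene that this rule names is not reported here. Sequences and hg19 coordinates are those of the array annotation, and current names are from the RefSeq gene table. The alternatives were normexp (offset 50), quantile, median and detected-probe scaling, the deposited table without scaling, other filters on dim probes, trend and robust moderation, the replicate number as a block, the rank product, and each array left out. Leaving out EV 2 and HOTAIR 3 together, and requiring all spots of a probe above background, were added after seeing the data.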

Additional observations from a re-analysis of the deposited data

How the results depend on the processing

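Member calls by limma stayed at 0 under every alternative fitted. For EPB41L3 this is no test, because the gene was chosen for its difference. The rank product called 1 member probe, that of EPB41L3, which is no test for the same reason. Partner genes called went from 0 to 1 with quantile normalization, to 1 with scaling to the median of detected probes, and lay between 0 and 1 when single arrays were left out (1 without EV 2). The EPB41L3 difference was -0.28 with normexp, -1.70 to -1.88 under the other scalings and the block, and -2.03 to -1.40 with single arrays left out. Set against the dimmest signals well above background, the EPB41L3 difference had the same size with normexp, 0.28 (log2). The gene had no value when a probe had to be well above background on all arrays or in all its spots.

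Signs turned for some probes. EPB41L1 at position 5985 gave -0.015 with quantile normalization, and -0.33 to 0.53 with single arrays left out. CADM1 at position 565 gave -0.040 with normexp, -0.021 with quantile normalization, -0.036 without EV 2 and HOTAIR 3, and -0.27 to 0.32 with single arrays left out. MOB1B, 0.40 over all arrays, gave -0.037 without EV 2 and HOTAIR 3. With single arrays left out EPB41L2 ran from -0.20 to 0.074, EPB41L5 from -0.29 to 0.12, MSN from -0.11 to 0.14 and NF2 at position 6006 from -0.20 to 0.018. The cause was not tested.

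The calls over all probes were 34, against 12 with normexp, 14 without a filter on dim probes, 22 with the filter for all arrays, 20 with trend and robust moderation, 14 without EV 2 and HOTAIR 3, and 9 (without EV 1) to 31 (without EV 2) with single arrays left out. The labels do not say whether same-numbered samples were handled together. The deviations of same-numbered arrays correlated at 0.386, -0.368 and -0.406. These values cannot settle it, because deviations within a group cancel out and EV 2 moved with HOTAIR 3 (r = 0.62). With the replicate number as a block limma called 0 probes (1073 at an unadjusted p under 0.05), 0 member probes and 0 partner genes, and the EPB41L3 difference was -1.88. Signal over background limits EPB41L3, which was well above background on no HOTAIR array.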
